A study of Bos taurus with 7 samples.

Results

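A set of 128 short RNA sequences of cow's milk was defined by their high values in the 12k and 35k milk fractions. The members were chosen by their measured RPM, the reads of a sequence scaled to 1000000 reads of 8 to 15 nt in its library. The rule took sequences of 11 to 15 nt with at least 20 RPM in both the 12k and the 35k fraction, and in both at least 5 times the highest of 3 milk libraries. It found 128 of 229971 distinct sequences, or 128 of the 177477 with 11 to 15 nt. Of the 612 sequences with at least 20 RPM in both fractions, the members made up 20.9%, and the other 484 are the background used below.

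The series held 7 libraries of total RNA (Bos taurus), 1 each of the MP fractions 12k, 35k, 70k and 100k and 3 of milk. What MP and k stand for is not said in the labels. All 7 are labelled as Holstein and as the same kind of retail product, skimmed and filtered milk that had been pasteurised and homogenised. The labels name no cow, carton or day, so the SD over the milk libraries measures only the spread between them, which may be technical, and each fraction is a single library. The 12k, 35k, 70k and 100k libraries held 2309731, 2560280, 1817538 and 1938689 reads, and the milk libraries 1658606 to 4572650. At these depths 20 RPM stands for 47 reads in 12k and 52 reads in 35k. A count of 0 allows up to 3 reads, which is 0.656 to 1.81 RPM by library. All values are shares of the reads of a library, so more of 1 sequence and less of the others cannot be told apart. The rule used the values of 12k, 35k and milk, and each fraction has 1 library, so no test was made and every comparison below is a description.

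Milk carries RNA outside of cells, in vesicles, in fat globules and bound to protein, and much of it is broken down to short pieces. Ribosomal RNA (rRNA), the RNA of the ribosome, and transfer RNA (tRNA), which brings amino acids to it, are the most abundant RNAs of cells and common sources of such pieces. A nuclease that cuts an RNA at a fixed place leaves fragments with 1 shared end and a ragged other end, so the ends of overlapping fragments describe how they relate. Milk also holds bacteria and their RNA, and pasteurisation kills bacteria without removing their RNA.

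The members that lead by mean RPM over 12k and 35k are shown first, numbered by that rank, because 12 of them hold most of the reads of the set. Each is written 5′ to 3′ as in the deposited lists, with T for U. Capitals mark the core, the run of bases that all members of an overlap family share. Sequence 3 is left out because it was recognised as bacterial.
sequence 1: tGTGGGTGCTTG
sequence 2: aTCAACGACAAG
sequence 4: CTGGACGAGGCGCc
sequence 5: TCAACGACAAG
sequence 6: tTGCCGAGGAACTGC
sequence 7: gCAATGGACGGCAG
sequence 8: GTGGGTGCTTG
sequence 9: aGGGACGGCCGG
sequence 10: AACGATGCGAAC
sequence 11: ttGTTAGGAATAA
sequence 12: tttGTTAGGAATAA

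The 2 families with the most members, built on sequences 1 and 2, are shown next with their further forms, since they show how the members differ from each other. Sequences 18, 57, 85, 89 and 116 belong to the family of sequence 1, and sequences 25, 36, 50 and 64 to that of sequence 2.
sequence 18: tGTGGGTGCTTGt
sequence 57: tGTGGGTGCTTGtg
sequence 85: atGTGGGTGCTTG
sequence 89: gtGTGGGTGCTTG
sequence 116: gGTGGGTGCTTG
sequence 25: tTCAACGACAAG
sequence 36: taTCAACGACAAG
sequence 50: gTCAACGACAAG
sequence 64: atgaTCAACGACAAG

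The leading members recognised as pieces of animal rRNA are shown next, with overlapping forms of some. Sequences 28, 38, 81 and 96 came from 5.8S rRNA, sequence 13 with sequence 9 from 18S rRNA, and the others from 28S rRNA.
sequence 28: gaACGCAGCTAGC
sequence 38: agaACGCAGCTAGC
sequence 81: aACGCAGCTAGC
sequence 96: ACGCAGCTAGC
sequence 13: GGGACGGCCGG
sequence 15: GGAAACTCTGGTGGa
sequence 84: GGAAACTCTGGTGG
sequence 16: CCGTGGATCGCc
sequence 19: ggGAAGTCGGC
sequence 31: gGAAGTCGGCa

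Sequences with the highest values in the 100k fraction among those printed, or with unusual ratios between 12k and 35k, are shown last. Capitals again mark a family core, and a sequence without capitals overlapped no other member.
sequence 17: ATTGGACAGCGCTG
sequence 41: ATGTGGGAGCTGG
sequence 95: aaATGTGGGAGCTGG
sequence 48: gaggaccggga
sequence 72: tttcggggacct
sequence 43: tgtcggccagtgg
sequence 98: acatcgaggaag
sequence 106: GAAGCCGGCGG

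Together the 128 members held 22487 RPM in 12k and 28662 RPM in 35k, then 2573 RPM in 70k and 1848 RPM in 100k. In the milk libraries 1, 2 and 3 they held 748, 820 and 764 RPM, a mean of 777 ± 37.7 RPM (SD, n = 3). As shares of the reads this was 2.25% of 12k (95% Wilson interval 2.23 to 2.27) and 2.87% of 35k (2.85 to 2.89), against 0.0777% ± 0.00377 of milk. The high values in 12k and 35k follow from the rule. In 70k the sum was 3.31 times and in 100k 2.38 times the milk mean, above each milk library, though the rule had also kept members with low milk values. Intervals cover counting error only, as the reads carry no molecular identifiers.

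The leading member was sequence 1, which matches no RNA recognised here. It had 4436 RPM in 12k, 4623 RPM in 35k, 364 RPM in 70k and 171 RPM in 100k, against 267, 271 and 298 RPM in milk. Its 12k and 35k values were 14.9 and 15.5 times the highest milk library. It was high in 12k and 35k, slightly above milk in 70k, and below every milk library in 100k, where its 95% Wilson interval ran from 153 to 190 RPM. It was also the member with the highest milk value.

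Sequences 2 and 5 are the 12-nt and 11-nt forms of the same family. Sequence 2 had 1721 RPM in 12k, 2212 RPM in 35k, 220 RPM in 70k and 41.8 RPM in 100k, against 15.7, 21.5 and 20.6 RPM in milk. Sequence 5 had 1511, 2056, 137 and 43.8 RPM in the same fractions, against 17.5, 20.5 and 15.5 RPM in milk. Both were above every milk library in all 4 fractions, and far higher in 12k and 35k than in 70k and 100k. Their ratio to the highest milk library in 12k was 80.1 for sequence 2 and 73.6 for sequence 5, several times that of sequence 1.

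Sequence 3, of 11 nt and not printed, was recognised as a piece of bacterial leucine tRNA. It had 1753 RPM in 12k, 2095 RPM in 35k, 297 RPM in 70k and 193 RPM in 100k, against 82, 27.7 and 47.0 RPM in milk. All 4 fractions stood above the milk libraries, and among the members it was the highest in 100k and the next after sequence 1 in 70k.

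Sequence 4 behaved otherwise outside of 12k and 35k. It had 1621 RPM in 12k, 2066 RPM in 35k, 39.1 RPM in 70k and 6.71 RPM in 100k, against 36.2, 33.2 and 39.8 RPM in milk. It lay within the range of the milk libraries in 70k and below each of them in 100k, where the 95% Wilson interval was 3.92 to 11.5 RPM. Sequences 6 and 7 had low milk values. Sequence 6 had 823 RPM in 12k, 1080 RPM in 35k, 67.7 RPM in 70k and 34.0 RPM in 100k, against 4.22, 9.44 and 8.75 RPM in milk. Sequence 7 had 497, 981, 52.8 and 48.5 RPM in these fractions, against 2.41, 6.84 and 6.56 RPM in milk. Both remained at least 3 times above every milk library in all 4 fractions.

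Sequences 8, 9 and 10 had higher milk values. Sequence 8, the bare core of the family of sequence 1, had 563 RPM in 12k, 652 RPM in 35k, 41.3 RPM in 70k and 28.4 RPM in 100k, against 4.82, 21.2 and 40.5 RPM in milk. The milk libraries differed widely for it. Sequence 9, a piece of 18S rRNA, the RNA of the small ribosomal subunit, had 401, 596, 39.1 and 22.2 RPM in the fractions, against 47.0, 61.9 and 32.4 RPM in milk. It was raised in 12k and 35k, within the milk range in 70k and below it in 100k. Sequence 10 had 489, 431, 34.7 and 6.71 RPM in the fractions, against 29.5, 36.8 and 12.5 RPM in milk, the same pattern.

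Sequences 11 and 12 were poor in G and C and were higher in 12k than in 35k. Sequence 11 had 519 RPM in 12k, 374 RPM in 35k, 3.85 RPM in 70k and 0 reads in 100k, against 3.01, 14.3 and 3.94 RPM in milk. Sequence 12 had 495, 354, 6.60 and 0 RPM in the fractions, against 2.41, 7.16 and 4.16 RPM in milk. A count of 0 in 100k allows up to 1.55 RPM, below every milk library for both. In 70k both were within the milk range.

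The leading 12 members held 65.9% of the members' reads in 12k and 61.1% in 35k, and 50.6% in 70k and 32.2% in 100k. In milk they held 64.8% to 69.3%. The remaining 116 members summed to 7658 RPM in 12k, 11142 RPM in 35k, 1271 RPM in 70k and 1252 RPM in 100k, against 253 ± 30.7 RPM in milk (SD, n = 3). The median member had 49.4 RPM in 12k, 76.0 RPM in 35k, 7.43 RPM in 70k and 4.38 RPM in 100k, against 0.603, 0.977 and 0.656 RPM in the milk libraries. Milk was thus near the limit of counting for most members. In at least 1 milk library 58 members had 0 reads, 26 had at most 3 reads in the milk libraries together, and 4 had no read in any of them. In 12 members the highest milk value was above 20 RPM. For 107 members the smaller of the 12k and 35k values was at least 10 times the highest milk value.

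The members lay close to each other in sequence. Joined where they shared a run of at least 10 bases on the same strand, 81 of the 128 fell into 31 families, of which 22 had 2 members, 4 had 3 and 5 had 4 or more. The other 47 members overlapped none, so the set holds 78 groups that are separate by this measure. By the same rule 78.9% of the other 484 sequences fell into families among themselves, against 63.3% of the members, and a larger list has more chances to overlap. Members of a family share sequence and are not replicates of each other.

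Most families differed at the 5′ side. In 20 of the 31 families all members ended at the same 3′ base, in 5 all began at the same 5′ base, and in 6 neither end was shared by all. Shared ends were not counted for families of the other 484 sequences, so these counts have no background. Of the 88 pairs of members within families, 45 differed only by bases added at the 5′ end and 8 only by bases added at the 3′ end. The family of sequence 2 had 6 members, all ending with the core TCAACGACAAG. Counted over all sequences of 8 to 15 nt that hold this core, 100% of the reads ended at its last base in each of the 7 libraries, and 33.5% to 47.5% began at its first base. Its members summed to 3535 RPM in 12k, 4833 RPM in 35k, 403 RPM in 70k and 94.9 RPM in 100k, against 41.3 ± 4.57 RPM in milk (SD, n = 3). Counted from 1 at the 5′ end, sequence 25 differed from sequence 2 by A1T and sequence 50 by A1G, so the 12-nt forms varied at the base before the core. In sequences 36 and 64, the longer forms, that base was A as in sequence 2, and further bases stood before it.

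The family of sequence 1 had 7 members and a less fixed 3′ end. Its members summed to 5337 RPM in 12k, 5744 RPM in 35k, 459 RPM in 70k and 268 RPM in 100k, against 307 ± 35.2 RPM in milk. Of the reads with the core GTGGGTGCTTG, 94.1% ended at its last base in 12k, 90.7% in 35k, 80.8% in 70k and 58.7% in 100k, against 95.8% to 99.6% in milk. The share that ended beyond the core was therefore above milk in all 4 fractions. The forms with bases beyond the core were members of their own. Sequence 18 had 184 RPM in 12k, 243 RPM in 35k, 26.4 RPM in 70k and 31.5 RPM in 100k, against 0.603, 4.56 and 1.97 RPM in milk. Sequence 57 had 52.8, 82.4, 19.8 and 33.5 RPM, against 0, 2.61 and 3.94 RPM in milk. Both forms were above every milk library in all 4 fractions, while sequence 1 itself was below milk in 100k. At the 5′ side sequence 116 differed from sequence 1 by T1G, and sequence 89 from sequence 85 by A1G. A 12-nt member that shares only shorter runs with the family, number 127 by rank, differed from sequence 1 by G4T. It had 20.3 RPM in 12k and 26.6 RPM in 35k, against at most 3.62 RPM in milk.

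The family of sequences 11 and 12 had 4 members that all ended at the last base of the core GTTAGGAATAA. They summed to 1227 RPM in 12k, 868 RPM in 35k, 10.5 RPM in 70k and 0 RPM in 100k, against 6.63, 22.8 and 10.3 RPM in milk. These members were thus high in 12k and 35k, within the milk range in 70k and not found in 100k. Over all sequences of 8 to 15 nt with the core, 100k held 11 reads, or 5.67 RPM, against 10.2 to 32.6 RPM in milk. The bare core, number 34 by rank, had 152 RPM in 12k and 100.0 RPM in 35k, 0 reads in 70k and 100k, and 0.603 to 2.19 RPM in milk. The milk values of that form are at or near the limits that 0 reads allow, so it was not detectably lower in 70k or 100k.

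In length the members were spread over the window, with 28 of 11 nt, 32 of 12 nt, 26 of 13 nt, 21 of 14 nt and 21 of 15 nt. The 11-nt members formed 21.9% of the set, against 14.7% of the other 484 sequences, and the 13-nt members 20.3% against 26.0%. By reads, 12-nt members led with 8517 RPM in 12k and 9794 RPM in 35k, followed by 11-nt members with 6196 and 7842 RPM. The median length was 13 nt in both sets.

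In base make-up, G was the most common base of the members at 37.8%, followed by A at 22.5%, C at 20.1% and T at 19.6%. The share of G and C was 58.0% (95% Wilson interval 55.6 to 60.3), against 62.4% (61.2 to 63.6) in the other 484 sequences. Bases of overlapping sequences are not independent, so these intervals are too narrow. With 1 leading member for each of the 78 groups the members' share was 58.1%. Single members ranged from 21.4% for sequence 12 to 100% G and C. At the first base, A stood in 35.2% of the members against 20.9% of the others, and C in 11.7% against 26.4%. With 1 leading member a group, A led 43.6%. The other 484 sequences, most of which also overlap, were not reduced in this way for this share or that of G and C. At the last base, C stood in 36.7% against 27.5%, G in 37.5% against 42.1%, and T in 10.2% against 14.0%. Of the other 484 sequences 129, or 26.7%, shared a run of 8 bases with 1 of the 10 leading milk sequences, against 9 members, or 7.03%. The rule left out sequences with high milk values, so this contrast is in part built in and is no result about the members.

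No RNA sequences of the cow were used here, so the members could not be matched to their parent RNAs. Parents were instead recognised by inspection from general knowledge of rRNA and tRNA, after the values had been seen, and checked against no reference. Of the 128 members 21 were recognised as animal rRNA, 15 of them from 28S, 4 from 5.8S and 2 from 18S rRNA. Another 11 were recognised as bacterial, 7 from leucine tRNA and 2 each from 16S and 23S rRNA. The remaining 96 are unassigned, which says only that their source was not recognised. Some may be rRNA or tRNA pieces, so the sums by class below cover recognised members only. A recognised member may also have been given the wrong parent, so counts and sums by parent are provisional. Short sequences of this kind can occur in several RNAs and in several organisms. The sequences of the 11 bacterial members and of 8 unassigned ones that may be bacterial are not printed.

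The 4 members from 5.8S rRNA, a small component of the large ribosomal subunit, summed to 354 RPM in 12k, 368 RPM in 35k, 2.75 RPM in 70k and 0 RPM in 100k, against 6.03, 4.56 and 3.50 RPM in milk. They were high in 12k and 35k and low in 70k, 100k and milk. Sequence 28 had 119 RPM in 12k, 201 RPM in 35k, 2.20 RPM in 70k and 0 reads in 100k, against 0.603, 2.61 and 1.53 RPM in milk. Sequence 38, longer by 1 base at its 5′ end, had 114 and 111 RPM in 12k and 35k, 0 reads in 70k and 100k, and 4.22, 0.651 and 0.437 RPM in milk. Sequence 81, shorter by 1 base, leaned the other way, with 69.7 RPM in 12k and 25.0 RPM in 35k, and sequence 96 with 51.1 and 31.2 RPM. All 4 forms ended at the same base. Of all reads of 8 to 15 nt with their shared core, 97.8% ended there in 12k and 100% in 35k.

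The 15 members from 28S rRNA, the main RNA of the large subunit, summed to 1180 RPM in 12k, 1521 RPM in 35k, 75.4 RPM in 70k and 24.2 RPM in 100k, against 47.0 ± 24.6 RPM in milk (SD, n = 3). Of the members recognised as 28S rRNA, sequence 15 led with 207 RPM in 12k and 414 RPM in 35k. It had 21.5 RPM in 70k and 1.03 RPM in 100k, against 3.01, 9.44 and 2.41 RPM in milk. It was above milk in 70k, while its 2 reads in 100k were too few to set it apart from milk. Sequence 84, the same piece without the last base, had 45.0 and 47.7 RPM in 12k and 35k, against 1.30 to 7.22 RPM in milk. Sequence 16 had 164, 265, 14.9 and 2.58 RPM in the fractions, against 8.44, 4.88 and 8.53 RPM in milk. Sequence 19 had 200.0, 213, 8.80 and 6.19 RPM, against 7.23, 31.6 and 2.19 RPM in milk, so that milk 2 alone kept its ratio low. The core of sequence 19 occurs in many other reads, and of these 40.2% ended at its last base in 12k and 47.3% in 35k, against 9.60% to 19.6% in milk. Most reads with this run of 9 bases thus went on past it in 12k, 35k and milk, and a larger share did so in milk. All reads with the core of sequence 16 together held 427 RPM in 12k, 790 RPM in 35k and 108 to 131 RPM in milk, a smaller contrast than that of the member itself.

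The pair recognised as 18S rRNA, sequences 9 and 13, summed to 624 RPM in 12k, 1038 RPM in 35k, 64.9 RPM in 70k and 33.5 RPM in 100k. In milk the pair summed to 66.9 ± 21.4 RPM (SD, n = 3). Further 18S rRNA pieces may lie among the other members, so this is not the sum of all 18S rRNA in the set. Sequence 13, the shorter form, had 223, 442, 25.9 and 11.3 RPM in the fractions, against 21.1, 25.7 and 12.5 RPM in milk. Both were close to the limit of the rule, with 6.49 and 8.65 times the highest milk value in 12k.

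All 21 animal rRNA members together held 2158 RPM in 12k, 2927 RPM in 35k, 143 RPM in 70k and 57.8 RPM in 100k, against 119 ± 45.6 RPM in milk (SD, n = 3). In 100k this was 0.487 times the milk mean and below each milk library. The 11 bacterial members together held 2651 RPM in 12k, 3103 RPM in 35k, 476 RPM in 70k and 403 RPM in 100k, against 109 ± 40.5 RPM in milk, with values of 153, 73.6 and 99.7 RPM in milk 1, 2 and 3. All 4 fractions stood above the milk libraries, with 70k at 4.37 and 100k at 3.71 times the milk mean. The 96 unassigned members held 17679, 22633, 1954 and 1387 RPM, against 550 ± 58.5 RPM in milk. They made up 78.6% of the members' reads in 12k and 79.0% in 35k, so most of the set's reads have no recognised source.

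The 70k and 100k fractions were not used by the rule, although milk was. In 70k 30 members had at least 20 RPM, and 16 of these were also at least 5 times the highest milk value. Over all sequences of 11 to 15 nt with at least 20 RPM in 70k the same limit was passed by 32%. In 100k 26 members had at least 20 RPM and 13 passed, where 28% of all such sequences passed. Of the members that reached the floor this is 53.3% in 70k and 13 of 26 in 100k, but members had been kept for low milk values, so the excess over the background is no result about them. As single-fraction background, 22.7% of the sequences at the floor in 12k and 37.3% of those in 35k passed the limit there.

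Without a floor, 101 members were above every milk library in 70k and 75 in 100k, and 5 and 21 were below every one. Among the 612 sequences with at least 20 RPM in 12k and 35k, 35.6% were above and 45.1% below every milk library in 70k, and 30.4% above and 51.3% below in 100k. Here too the low milk values of the members were part of their choice. The interval of the fraction alone lay above the highest milk value for 86 members in 70k and 61 in 100k. It lay below the lowest milk value for 0 members in 70k and 7 in 100k. For 8 members no read was found in 70k and for 27 none in 100k. The interval and zero counts were made for the members only, so they have no background share and are no result about the members. Nearly all members fell short of their own 12k and 35k values, 127 in 70k and 123 in 100k. The median member stood in 70k at 11.4% of its 12k value and 8.61% of its 35k value, and in 100k at 5.90% and 4.32%. Members were chosen for high 12k and 35k values, so these shortfalls are in part built in, and no background share was counted. Between the 2 fractions, 70k was the higher for 87 members and 100k for 34. This count has no background share and was not repeated under another scaling. With the TMM library sizes used below, the order of 70k and 100k turned for members past the limit.

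The members past the limit in 70k or 100k numbered 20, and 9 passed in both. The 16 members of 70k were all unassigned, and so were 12 of the 13 of 100k, beside 1 from bacterial 23S rRNA. Of all 128 members 96 were unassigned. None of the 21 animal rRNA members passed in 70k or 100k, but few of them reached the floor of 20 RPM there. Only sequences 9, 13 and 15 did so in 70k, and only sequence 9 in 100k. In 100k 10 of the 21 were below every milk library and 2 above, and 11 had no read. Over all members only 7 had an interval below every milk library in 100k, so not all of these 10 were lower beyond counting error. Of the 96 unassigned members 64 were above and 11 below, and of the 11 bacterial ones 9 above and 0 below. In 70k 9 animal rRNA members were above every milk library and 2 below, against 82 and 3 of the unassigned and 10 and 0 of the bacterial members. The classes were made after the values were seen, and many members of a class share a family. Unassigned members may include rRNA pieces that were not recognised, so these counts do not set rRNA apart from other RNA.

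A few members were as high in 100k as in 12k. Sequence 48 had 87.9 RPM in 12k, 82.0 RPM in 35k, 20.4 RPM in 70k and 95.9 RPM in 100k, against 3.62, 9.44 and 6.34 RPM in milk. It was about level in 12k, 35k and 100k and lower in 70k, yet above milk in all 4. Sequence 41 had 54.6, 145, 46.2 and 91.3 RPM in the fractions, against 1.21, 5.54 and 8.09 RPM in milk. Sequence 95, with 2 more bases at the 5′ end, had 24.7, 58.2, 39.1 and 89.8 RPM, against 0.603, 0.977 and 1.09 RPM in milk, and was highest in 100k. Both forms of this family were above every milk library in every fraction. Sequence 72 had 37.7, 72.3, 33.6 and 55.7 RPM, against at most 1.21 RPM in milk, and sequence 17 had 160, 268, 51.7 and 69.6 RPM, against 0.603, 4.56 and 9.62 RPM in milk. A 15-nt member from bacterial 23S rRNA had 71.4, 85.1, 39.1 and 75.8 RPM, against 12.7, 10.1 and 1.53 RPM in milk. For sequences 41, 48, 72, 95 and this one the 100k value exceeded that of 12k, and for sequences 48 and 95 that of 35k as well.

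Between the fractions that chose the members, 35k was the higher for 95 of the 128 and 12k for 33. Over all 612 sequences at the floor in both, 35k was the higher in 66.5%. The median ratio of 12k to 35k was 0.759 over the members and 0.853 over the others, with members from 0.120 to 2.79. This order rests on the scaling. With TMM library sizes, an alternative chosen after the values were seen, 35k was the higher for 63 members and for 42.3% of the 612, and the members' median ratio was 1.00. Sequence 81 of 5.8S rRNA had the highest ratio. Sequence 98 had 55.9 RPM in 12k and 25.0 RPM in 35k, and sequence 106 of 28S rRNA had 50.7 and 23.8 RPM. At the other end, a 13-nt member had 36.4 RPM in 12k and 303 RPM in 35k, and a 15-nt member 42.4 and 187 RPM, both unassigned and not printed. Sequence 43 had 38.1 RPM in 12k and 150.0 RPM in 35k. With 1 library a fraction, these ratios have no replicate check.

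Sequences of 10 nt were outside of the rule and are given to describe shorter forms of the members. Of 110 sequences of 10 nt with at least 20 RPM in 12k and 35k, 28.2% were at least 5 times the highest milk value in both. A member held 21 of the 110 whole, and 15 of these 21 passed, or 71.4%, against 16 of the 89 held by none, or 18%. These reads come from the same libraries and often the same RNAs as the members. The members were chosen for high 12k and 35k and low milk values. This contrast is therefore in part built in and is no result about the members. The highest values lay in 2 sequences of 10 nt that sit inside bacterial leucine tRNA members and are not printed. The first had 13762 RPM in 12k, 13219 RPM in 35k, 2358 RPM in 70k and 3006 RPM in 100k, against 727 ± 218 RPM in milk (SD, n = 3), with a highest milk library of 966 RPM. The other had 12455, 12202, 1477 and 2036 RPM, against 478 ± 138 RPM in milk, with a highest library of 627 RPM. Each was above every milk library in all 4 fractions and held several times the reads of the leading member. The members built on them are thus longer forms of much more abundant 10-nt sequences. In the family of sequence 3, 86.9% of the reads with its 10-nt core began at the core's first base in 12k and 84.6% in 35k, against 91.0% to 93.3% in milk.

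The shorter forms could be much less abundant than the members. Sequence 2 without its first 2 bases had 33.3 RPM in 12k and 75.8 RPM in 35k, against at most 0.875 RPM in milk, far under the 1721 and 2212 RPM of the member. Sequence 96 without its first base had 54.1 RPM in 12k and 100.0 RPM in 35k, 0 reads in 70k and 100k, and at most 0.977 RPM in milk. Both of these passed. In contrast, a 10-nt piece of the rRNA member number 67 had 61.9 RPM in 12k and 65.6 RPM in 35k but 35.2 RPM in milk 2, and did not pass.

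Members at the edge of the rule had values like those just outside it. Just inside, number 52 by rank had 72.7 RPM in 12k and 83.6 RPM in 35k with 14.3 RPM in milk 2, or 5.08 times. Number 71 had 35.1 and 75.8 RPM with 6.63 RPM in milk 1 and 0 reads in milk 2 and milk 3, or 5.29 times, so that 1 milk library set its ratio. A 13-nt member from bacterial 23S rRNA had 119 and 115 RPM with 21.7 RPM in milk 1 but 1.95 and 1.09 RPM in milk 2 and milk 3, also 5.29 times. Just outside, a sequence of 11 nt had 190 and 229 RPM with 40.7 RPM in milk 2, or 4.66 times. Another of 11 nt, not printed, had 147 and 489 RPM with 31.9 RPM in milk 2, or 4.60 times, and a further one of 11 nt, a shorter form of the 28S rRNA member number 55, had 34.6 and 59.8 RPM with 7.84 RPM in milk 1, or 4.42 times. At the floor, the 3 lowest members had 20.3 RPM in 12k, which is 47 reads.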

How the data were processed

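The deposited lists hold, per the file headers, distinct sequences from 8 to 15 nt, their read counts and the authors' RPM. The deposited RPM equalled counts over the file total to within 0.0005, and 1 closing total a file, which also doubled the sum of the deposited column of milk 1, was left out. Per the labels' protocols, libraries of inserts of about 8 to 35 nt were sequenced for 51 cycles. Trimming, filters, any aligner and genome build: not given in the sources used here. File totals cover the 8 to 15 nt window, not the whole libraries.

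RPM was computed from the counts, with Python 3.11.15, pandas 2.3.3 and scipy 1.17.1. The code was tested on simulated data. TMM factors, an alternative, came from edgeR 4.0.16 in R 4.3.3, over sequences with 10 reads or more in 3 libraries or more. Overlap families joined members by shared runs of at least 10 bases (single linkage). Intervals are 95% Wilson intervals. The limit for a count of 0 is 3 reads.

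The members and lists were chosen with earlier results of these data known, and no test was made. Named members are the 12 with the highest mean over 12k and 35k, the leads of families of 4 or more, the 3 highest in 70k, in 100k and in milk, the 3 with the highest and the lowest ratio of 12k to 35k, and the 3 nearest to the limit on either side. Others named (family forms, rRNA members, further members high in 100k) were picked after their values were seen.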

Additional observations from a re-analysis of the deposited data

How the results depend on the processing

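The number of members, 128, moved by more than 1.5 times with a floor of 10 RPM (246) or 50 RPM (53), with the 35k fraction alone (523), and with totals that leave out the 10 most abundant sequences (527, of which 121 were members). In the 8 other settings apart from leaving out libraries it ran from 107 at a ratio of 10 to 178 with lengths of 8 to 15 nt. With TMM library sizes it was 119, of which 116 were members. It was 132 to 146 when 1 milk library was left out. Members past the limit in 70k numbered 10 with TMM and 8 at a ratio of 10, against 16, and 16 to 18 without 1 milk library. In 100k they numbered 18 with TMM and 8 at a ratio of 10, against 13, and 13 to 15 without 1 milk library, so that TMM turned the order of 70k and 100k. The members' sum without sequence 1 was 18051 RPM in 12k and 24039 RPM in 35k, since that member is left out. With TMM it was 24060 and 23207 RPM, since TMM rescales each library, so that the sum was higher in 12k than in 35k. Members higher in 35k than in 12k numbered 63 with TMM, against 95, in an alternative chosen after seeing the data. Families and the share of G and C stayed within their limits in all settings run. The match to bovine RNAs and its 3 alternatives were not run, for lack of RNA sequences. No paired analysis was possible because each fraction has 1 library and no test was made. Depth limits the low values, and the median member had at most 0.977 RPM in milk.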
